A study of Arabidopsis thaliana with 9 samples.

Results

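A set of 10 nuclear genes of the jasmonate pathway is described here in green and albino seedlings of the Arabidopsis thaliana 2cpab mutant and in the wild type. They were taken by locus identifier, 10 of the 32833 genes in the table, and all 10 were found. LOX2, LOX3, AOS, AOC2 and OPR3 act in the synthesis of the hormone, CYP94B1, CYP94B3 and CYP94C1 in its breakdown, and VSP1 and VSP2 are outputs of its signalling. The genes were chosen by their group differences in log2 level in these same libraries, which were already known. Their levels and differences are therefore given as a description, with no test of their own.

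Jasmonate synthesis begins in the chloroplast, where 13-lipoxygenases add oxygen to a polyunsaturated fatty acid, allene oxide synthase and allene oxide cyclase turn the product into OPDA, and OPDA moves to the peroxisome. There OPR3 reduces it, and rounds of beta-oxidation shorten it to jasmonic acid. JAR1 joins jasmonic acid to isoleucine, and this conjugate is the active hormone: it brings JAZ repressor proteins to the receptor subunit COI1 for destruction, which frees MYC2 and its relatives to switch on genes such as VSP2. Cytochromes P450 of the CYP94 family oxidise the conjugate and so end the signal, and in leaves the hormone is best known for the response to wounding and chewing insects.

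Poly(A) RNA was sequenced from whole seedlings at 6 days, with 3 libraries each of albino seedlings of 2cpab, green seedlings of 2cpab, and Col-0 as the wild type. Light was continuous at 125 µE m-2 s-1 and the MS medium held 0.5% sucrose in all 3 groups. The mutant takes its name from 2CPA and 2CPB, which encode the 2-Cys peroxiredoxins of the chloroplast, and the labels give no allele names. Both mutant groups carry the same genotype label and were told apart by pigment.

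Levels are given as scaled FPKM, which is FPKM (fragments normalised to gene length and library total) multiplied by a factor per library that gave every library the same 75th percentile. Differences are on the log2(scaled FPKM + 1) scale, followed by their standard error, and understate changes of weakly expressed genes. A gene was tested where scaled FPKM was at least 1 in at least 3 libraries, which left 19731 genes, and called at an adjusted p below 0.05 in limma with Benjamini-Hochberg adjustment. All 10 genes passed this filter, CYP94C1 with at least 1 in 8 of 9 libraries and the other 9 genes in all 9. Nothing in the labels shows that the replicates were grown separately, so the p-values cover the spread of these libraries alone, and part of it may be technical.

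RNA of the 2 targeted genes was lowest in albino libraries and lower in every green library than in any wild-type library. 2CPB stood at 1.82, 2.89 and 1.52 scaled FPKM in albino replicates 1 to 3, at 7.21, 48.6 and 54.2 in green and at 237, 174 and 188 in wild type. 2CPA stood at 24.2, 21.4 and 25.4 in albino libraries, at 35.8, 267 and 256 in green, and at 989, 763 and 889.7 in wild type. Green replicate 1 thus lay near the albino libraries for both genes and far below the other 2 green libraries, so the differences of the 10 genes that involve green libraries are also given without it. Of the markers of green tissue, all 5 were called lower in albino than in wild-type libraries, with summed levels of 3424 to 4204 in albino, 25406 to 41755 in green and 30245 to 37780 in wild-type libraries. Root markers were detected in every library, at summed levels of 66.2 to 79.6 in albino, 133 to 152 in green and 82.7 to 146 in wild type. IRT1, an iron transporter, carried the lower albino sum, with means of 9.91 ± 3.45 in albino, 107 ± 11.7 in green and 63.7 ± 18.2 in wild type. IRT1 was called lower in albino against both other groups, while the other 4 markers were all called higher in albino against green and 1 of them, EXPA7, in albino against wild type. The part of these tissue shares in the differences of the 10 genes was not tested. The flower markers AP3, PI and AG summed to 0.56 at most in any library of these whole seedlings, and AG was listed at 0 in all 9. In RNA of whole seedlings, fewer cells of a type and less RNA per cell cannot be told apart. Absolute depth is unknown, since the table holds no counts, and 22926 to 23963 genes per library were above 0.

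The synthesis and breakdown genes split in direction, while both output genes lay on 1 side. LOX3, AOS, OPR3, CYP94B3 and CYP94C1 were lower in albino than in wild-type libraries, by 1.01 to 3.72 on the log2 scale, while LOX2, AOC2, CYP94B1, VSP1 and VSP2 were higher, by 0.70 to 2.79. The albino and wild-type libraries did not overlap for any of the 10 genes, 5 of them higher and 5 lower, in a comparison in which 56.0% of all genes tested did not overlap (31.5% higher and 24.4% lower). In green against wild type 4 were higher and 5 lower without overlap, beside 23.8% of all genes (12.0% higher and 11.8% lower). In albino against green 4 were higher and 4 lower without overlap, beside 53.3% of all genes (29.5% higher and 23.8% lower). In the fit across all genes 5 of the 10 were called higher and 5 lower in albino against wild-type libraries. There 43.5% of genes tested were called (23.4% higher and 20.1% lower). In green against wild-type libraries 1 was called higher and 5 lower, where 8.87% were called (3.71% higher and 5.16% lower). As TPM these were 3 and 5, where 650 of the 19731 genes tested were called higher and 753 lower. In albino against green libraries 4 were called higher and 4 lower, where 36.1% were called (18.5% higher and 17.7% lower). As TPM these were 5 and 3, where 11859 genes were called higher and 1839 lower. These contrasts were known when the genes were chosen, so nothing is read from these counts. The median difference of the 10 genes was -0.16 in albino against wild-type libraries, where all genes tested had a median of 0.07. It was -0.50 against 0.02 in green against wild type, and -0.05 against 0.05 in albino against green.

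**Figure D1:**
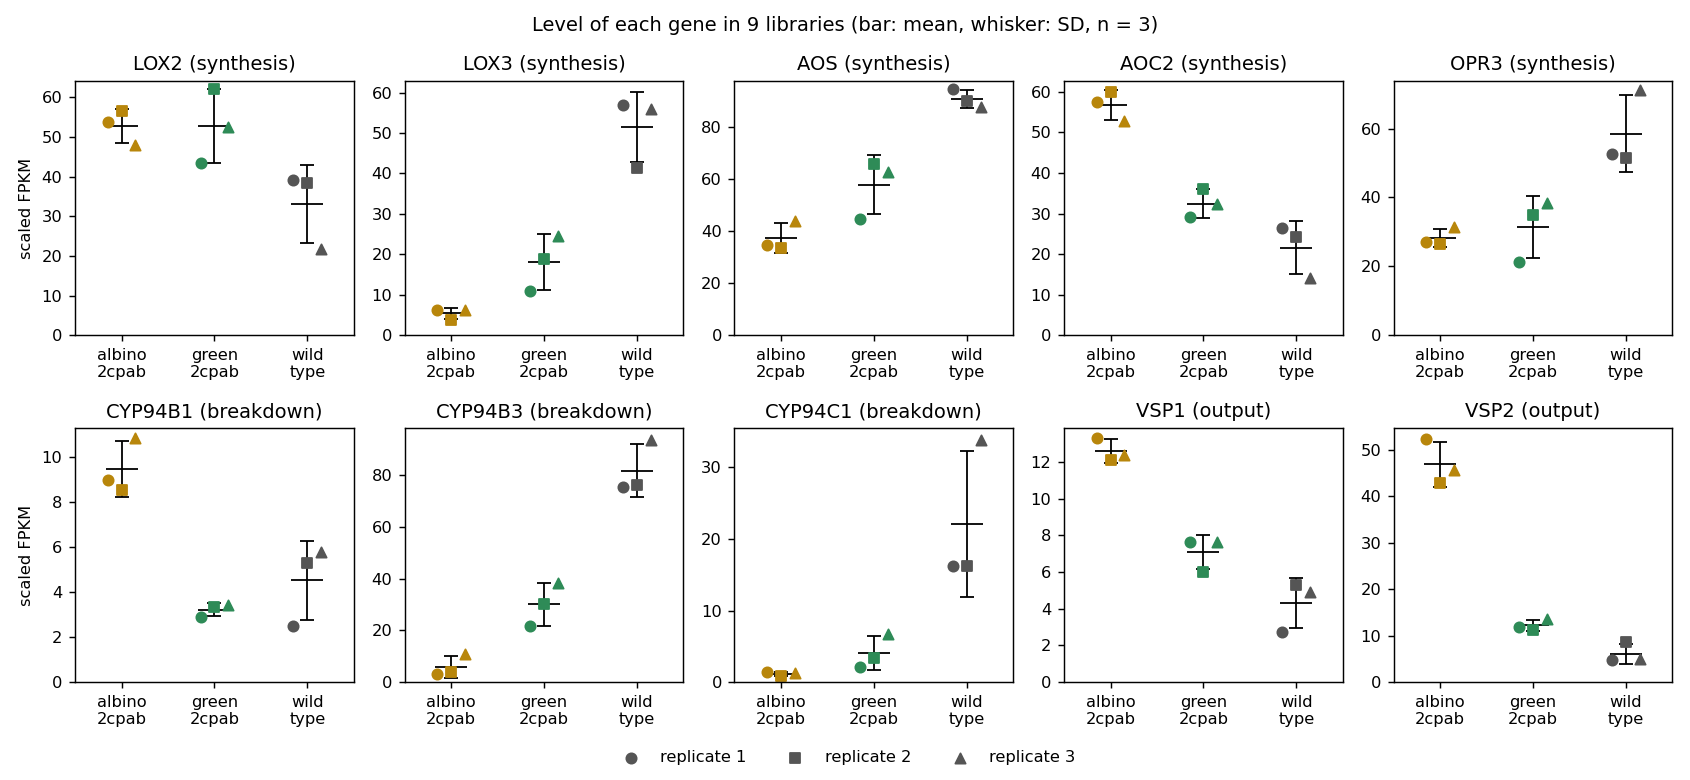
Level of each of the 10 genes in scaled FPKM in every library, with 1 panel per gene and its role in the title. Points are replicates 1 to 3, horizontal bars are group means and whiskers are the SD (n = 3). LOX3, AOS, CYP94B3 and CYP94C1 step up in the order albino, green, wild type, and AOC2, VSP1 and VSP2 step down in that order.

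The 13-lipoxygenases LOX2 and LOX3 catalyse the same step and lay on opposite sides. LOX2 (AT3G45140, chr3:16525245-16529352, plus strand, TAIR10.1) is the abundant leaf form that makes much of the jasmonate formed after wounding. LOX3 (AT1G17420, chr1:5977323-5981521, plus strand) is a wound-inducible form that, with LOX4, is known for a part in anther and stamen maturation. The 250 bases before the annotated starts of both, from the TAIR10.1 genome of RefSeq, are shown because the 2 genes differ in direction while each holds the 6-base sequence CACATG, a variant of the G-box that MYC factors can bind. Capitals mark CACATG or its reverse complement CATGTG. The LOX2 stretch is chr3:16524995-16525244 and the LOX3 stretch chr1:5977073-5977322, both on the plus strand.
LOX2: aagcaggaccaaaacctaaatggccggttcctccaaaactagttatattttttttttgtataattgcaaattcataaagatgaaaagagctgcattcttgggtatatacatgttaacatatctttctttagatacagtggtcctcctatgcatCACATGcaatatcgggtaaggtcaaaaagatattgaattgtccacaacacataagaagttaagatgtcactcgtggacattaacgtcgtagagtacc
LOX3: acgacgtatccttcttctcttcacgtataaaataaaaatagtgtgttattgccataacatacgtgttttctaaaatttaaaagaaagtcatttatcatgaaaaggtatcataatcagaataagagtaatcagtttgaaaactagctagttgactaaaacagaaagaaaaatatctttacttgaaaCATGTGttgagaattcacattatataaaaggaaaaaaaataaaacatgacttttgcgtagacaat
The match lies at bases -97 to -92 before the start of LOX2 and at -65 to -60 before that of LOX3. Of the 27443 nuclear promoters of this length, 11.1% hold it on either strand, as do 3 of the 10 genes.

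LOX2 stood at 53.7, 56.6 and 48.0 scaled FPKM in albino libraries, at 43.6, 62.1 and 52.5 in green and at 39.1, 38.5 and 21.7 in wild type. Both mutant groups lay above every wild-type library and overlapped each other, and wild-type replicate 3 was the lowest of all. The difference was 0.70 ± 0.21 in albino against wild type, 0.69 ± 0.21 in green against wild type and 0.01 ± 0.21 in albino against green.

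LOX3 stood at 6.18, 3.71 and 6.20 in albino libraries, at 10.8, 18.8 and 24.5 in green and at 56.9, 41.5 and 55.9 in wild type. The 3 groups did not overlap, with green libraries between the other two. The difference was -3.06 ± 0.27 in albino against wild type, -1.52 ± 0.27 in green against wild type, or -1.21 without green replicate 1, and -1.54 ± 0.27 in albino against green.

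Within a library the ratio of LOX3 to LOX2 does not depend on how libraries are scaled. It was 0.12, 0.065 and 0.13 in albino libraries, 0.25, 0.30 and 0.47 in green libraries and 1.46, 1.08 and 2.57 in wild-type libraries. LOX3 exceeded LOX2 per length in every wild-type library and in no mutant library.

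All 4 genes of the 13-lipoxygenase class share this step, so their sum shows how the family was made up. LOX2 gave 68.2 ± 5.01% of the summed scaled FPKM in albino libraries, 50.4 ± 5.96% in green libraries and 19.8 ± 6.26% in wild-type libraries (SD, n = 3 each). The sum itself was 77.4 ± 1.13 in albino, 106 ± 22.4 in green and 168 ± 14.4 in wild-type libraries. LOX4, the closest relative of LOX3 with 80.6% of coding bases identical, stood at 3.55, 2.43 and 5.22 in albino libraries, at 14.2, 25.0 and 32.6 in green libraries and at 72.1, 56.4 and 76.2 in wild-type libraries. LOX4 fell by 3.90 ± 0.29 in albino against wild type (limma adjusted p = 8.12e-06), by 1.54 ± 0.29 in green against wild type (limma adjusted p = 0.0104) and by 2.37 ± 0.29 in albino against green (limma adjusted p = 0.000209). LOX6, named after its values were seen, averaged 15.5 ± 1.07 in albino, 11.0 ± 0.272 in green and 15.1 ± 1.56 in wild-type libraries and did not pass the test in albino against wild type (limma adjusted p = 0.767), though as TPM it was called higher (adjusted p = 0.00419). LOX6 rose by 0.46 ± 0.09 in albino against green (limma adjusted p = 0.00339). It fell by 0.42 ± 0.09 in green against wild type (limma adjusted p = 0.0195), a call lost without green replicate 2 or 3 (0.0578 and 0.0592) and as TPM (0.0675).

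Allene oxide synthase is encoded by the single gene AOS, a cytochrome P450 at the entry to the jasmonate branch (AT5G42650, chr5:17097564-17099595, minus strand). Its upstream stretch, chr5:17099596-17099845 on the minus strand, is shown because AOS alone among the 10 genes holds the full G-box CACGTG, a palindrome, in this window. Capitals mark it.
AOS: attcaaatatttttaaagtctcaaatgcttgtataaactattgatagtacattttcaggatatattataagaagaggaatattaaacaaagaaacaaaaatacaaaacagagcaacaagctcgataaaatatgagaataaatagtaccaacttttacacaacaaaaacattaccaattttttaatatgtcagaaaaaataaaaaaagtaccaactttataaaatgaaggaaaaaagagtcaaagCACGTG
The G-box occupies bases -6 to -1, directly before the annotated start, and 6.49% of all promoters of this length hold one.

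AOS stood at 34.7, 33.3 and 43.7 in albino libraries, at 44.7, 65.6 and 62.8 in green and at 94.4, 89.8 and 87.8 in wild type. The groups were separate in the order albino, green, wild type, though green replicate 1 was close to albino replicate 3. The difference was -1.27 ± 0.15 in albino against wild type, -0.66 ± 0.15 in green against wild type, or -0.49 without green replicate 1, and -0.61 ± 0.15 in albino against green.

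Allene oxide cyclase is encoded by 4 genes, of which AOC2 (AT3G25770, chr3:9406669-9408071, plus strand) lies in a tandem row between AOC1 and AOC3. AOC2 stood at 57.4, 60.0 and 52.8 in albino libraries, at 29.1, 36.0 and 32.3 in green and at 26.4, 24.1 and 14.2 in wild type. It ran the opposite way to AOS, the enzyme just before it, with no overlap between the 3 groups. The difference was 1.40 ± 0.19 in albino against wild type, 0.61 ± 0.19 in green against wild type and 0.79 ± 0.19 in albino against green.

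The ratio of AOS to AOC2 within a library was 0.60, 0.56 and 0.83 in albino libraries, 1.54, 1.82 and 1.95 in green libraries and 3.58, 3.72 and 6.19 in wild-type libraries. The order of these 2 transcripts per length was thus turned round in every albino library.

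The cyclase genes exchanged places within a sum that varied less. AOC2 gave 42.8 ± 3.68% of the family's summed scaled FPKM in albino, 34.6 ± 2.16% in green and 18.6 ± 6.59% in wild-type libraries, and AOC3 gave 21.0 ± 1.71% in albino, 33.4 ± 3.15% in green and 56.5 ± 6.25% in wild-type libraries (SD, n = 3 each). The family's sum was 133 ± 4.80 in albino, 94.0 ± 9.91 in green and 118 ± 8.07 in wild-type libraries. AOC3 fell by 1.06 ± 0.16 in green against wild type (limma adjusted p = 0.00353) and by 1.23 ± 0.16 in albino against wild type (limma adjusted p = 0.000209), the second comparison having been picked out after its values were seen. AOC2 shares 90.3% of coding bases with AOC1 and 82.4% with AOC3, with identical runs of up to 47 and 50 bases, so reads may have been split between these copies and their separate levels are uncertain.

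**Figure D2:**
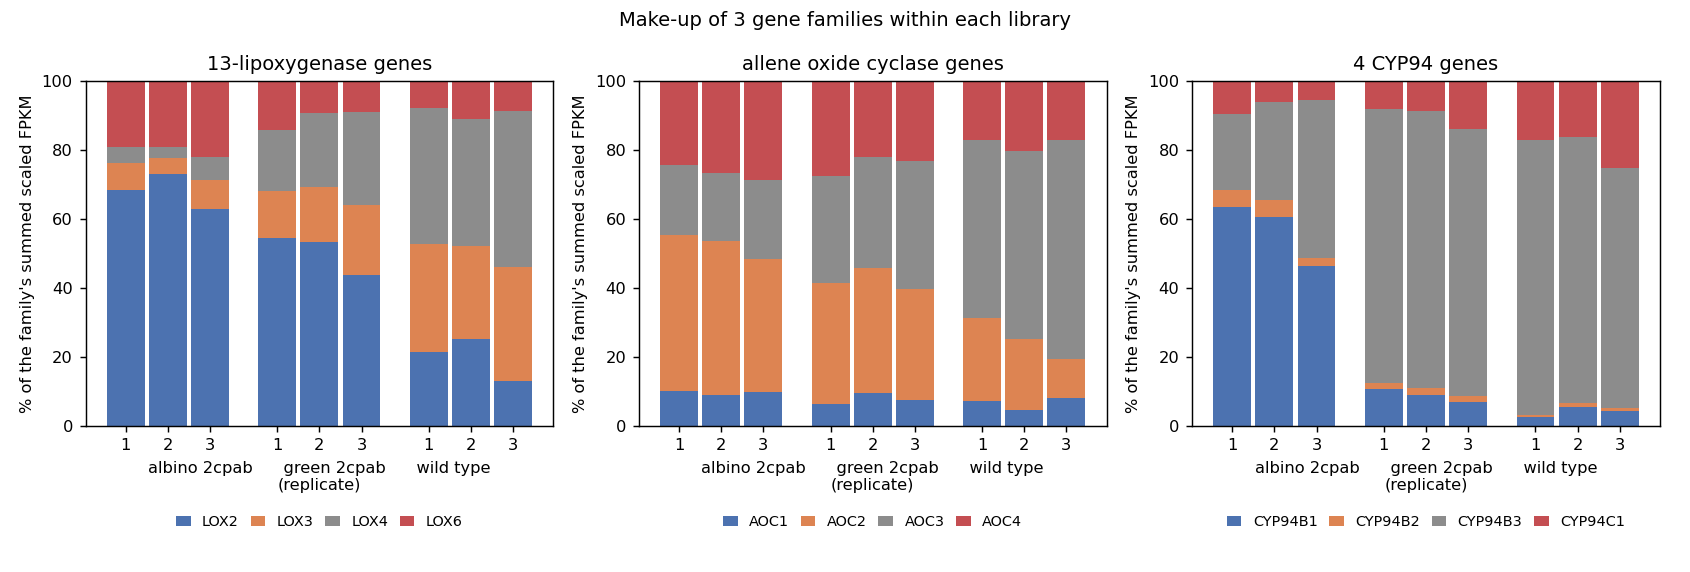
Share of each gene in the summed scaled FPKM of its family, in percent, for 13-lipoxygenase genes, allene oxide cyclase genes and 4 CYP94 genes. Each bar is 1 library, replicates 1 to 3 of albino 2cpab, green 2cpab and wild type. LOX2 gives 63.0% to 73.0% of its family in albino libraries and 12.9% to 25.1% in wild-type libraries, and CYP94B1 gives 46.4% to 63.4% of the CYP94 sum in albino and 2.63% to 5.35% in wild-type libraries.

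OPR3 (AT2G06050, chr2:2359114-2362375, minus strand) encodes the peroxisomal reductase that commits OPDA to jasmonic acid. It stood at 27.1, 26.4 and 31.4 in albino libraries, at 21.3, 34.8 and 38.3 in green and at 52.7, 51.5 and 71.3 in wild type. Both mutant groups lay below every wild-type library and overlapped each other, with green replicate 1 the lowest of the 9. The difference was -1.01 ± 0.21 in albino against wild type, -0.90 ± 0.21 in green against wild type and -0.11 ± 0.21 in albino against green, or -0.36 without green replicate 1. With all libraries the albino against green value turned to 0.33 when the levels were expressed as TPM and to 0.27 with the authors' scaling undone, so its sign depends on the scaling.

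The CYP94 genes of breakdown held the 2 widest differences of the set. CYP94B3 and CYP94B1 encode hydroxylases of the jasmonate conjugate, and CYP94C1 oxidises it further to the carboxylic acid. CYP94B3 (AT3G48520, chr3:17974853-17976774, minus strand) stood at 3.13, 4.01 and 10.7 in albino libraries, at 21.6, 30.3 and 38.1 in green and at 75.5, 76.0 and 93.5 in wild type. The groups did not overlap, and albino replicate 3 stood above the other 2 albino libraries. The difference was -3.72 ± 0.34 in albino against wild type, -1.44 ± 0.34 in green against wild type, or -1.23 without green replicate 1, and -2.28 ± 0.34 in albino against green.

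CYP94C1 (AT2G27690, chr2:11809279-11811280, plus strand) is the only one of the 10 genes whose window holds CACATG 2 times, which is why its sequence is shown. The stretch is chr2:11809029-11809278 on the plus strand, and capitals mark the matches at bases -153 to -148 and -63 to -58.
CYP94C1: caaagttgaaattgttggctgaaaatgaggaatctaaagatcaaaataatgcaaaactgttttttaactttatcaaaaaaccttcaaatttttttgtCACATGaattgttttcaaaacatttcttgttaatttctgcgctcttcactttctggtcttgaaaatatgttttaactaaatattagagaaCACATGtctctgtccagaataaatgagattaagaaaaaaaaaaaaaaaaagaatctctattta
CYP94C1 stood at 1.36, 0.876 and 1.29 in albino libraries, at 2.17, 3.34 and 6.78 in green and at 16.3, 16.2 and 33.8 in wild type. It was the weakest of the 10 genes in albino libraries, and the groups did not overlap. The difference was -3.33 ± 0.34 in albino against wild type, -2.20 ± 0.34 in green against wild type and -1.13 ± 0.34 in albino against green.

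CYP94B1 (AT5G63450, chr5:25408821-25410725, minus strand) went the other way in albino libraries alone. It stood at 8.98, 8.55 and 10.9 in albino libraries, at 2.88, 3.32 and 3.43 in green and at 2.50, 5.29 and 5.77 in wild type. Every albino library was above all the others, while green and wild-type libraries overlapped. The difference was 0.97 ± 0.22 in albino against wild type, -0.33 ± 0.22 in green against wild type and 1.31 ± 0.22 in albino against green.

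The 2 hydroxylase genes share 77.4% of coding bases, with no identical run above 31 bases. CYP94B3 was 0.35, 0.47 and 0.99 times CYP94B1 in albino libraries, 7.48, 9.14 and 11.1 times in green libraries and 30.2, 14.4 and 16.2 times in wild-type libraries. The order of the pair was thus reversed in albino libraries, narrowly so in replicate 3. The sum of 4 CYP94 genes, CYP94B2 included, was 17.2 ± 5.35 in albino, 38.0 ± 11.0 in green and 109 ± 21.6 in wild-type libraries (SD, n = 3 each).

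VSP1 and VSP2 encode vegetative storage proteins, acid phosphatases whose RNA is the standard readout of the MYC branch of jasmonate signalling. They lie next to each other on chromosome 5 on the minus strand, VSP2 (AT5G24770) at chr5:8500468-8502224 and VSP1 (AT5G24780) at chr5:8507590-8509201, with 5365 bases between. The 250 bases before each start, chr5:8509202-8509451 for VSP1 and chr5:8502225-8502474 for VSP2, are shown to set the tandem copies side by side. Capitals mark CACGTT, the reverse complement of the G-box variant AACGTG.
VSP1: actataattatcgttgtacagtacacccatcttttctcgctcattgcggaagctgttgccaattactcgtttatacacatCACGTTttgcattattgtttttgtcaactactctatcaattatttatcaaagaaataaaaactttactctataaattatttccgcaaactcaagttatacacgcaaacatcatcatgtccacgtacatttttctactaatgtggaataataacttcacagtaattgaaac
VSP2: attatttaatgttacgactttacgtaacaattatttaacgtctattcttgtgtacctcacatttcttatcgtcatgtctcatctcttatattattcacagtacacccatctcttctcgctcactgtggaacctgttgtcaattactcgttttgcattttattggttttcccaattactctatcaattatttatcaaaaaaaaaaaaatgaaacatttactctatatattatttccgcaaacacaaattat
A local alignment paired 148 bases of the 2 windows, 89.2% of them identical. The marked match, at -170 to -165 in VSP1, is in 7.54% of all promoters of this length on either strand, and these letters are not in the window of VSP2. The GCC box GCCGCC, known as the target of ERF factors, was in none of the 10 windows on either strand and in 1.87% of all promoters.

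VSP2 stood at 52.3, 42.8 and 45.6 in albino libraries, at 11.8, 11.3 and 13.6 in green and at 4.72, 8.56 and 5.06 in wild type. The 3 groups were separate, in the reverse order of AOS and LOX3. The difference was 2.79 ± 0.18 in albino against wild type, 0.93 ± 0.18 in green against wild type and 1.85 ± 0.18 in albino against green. As a ratio of group means VSP2 was 7.67 times as high in albino as in wild-type libraries.

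VSP1 stood at 13.3, 12.1 and 12.4 in albino libraries, at 7.63, 6.01 and 7.62 in green and at 2.76, 5.28 and 4.89 in wild type. It had the same order of groups as VSP2 with smaller steps. The difference was 1.39 ± 0.18 in albino against wild type, 0.64 ± 0.18 in green against wild type and 0.75 ± 0.18 in albino against green.

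VSP2 was 3.93, 3.54 and 3.69 times VSP1 in albino libraries, 1.55, 1.88 and 1.79 times in green libraries and 1.71, 1.62 and 1.03 times in wild-type libraries. The albino ratios lay apart from those of the other groups, which overlapped. The coding sequences of the pair are 90.4% identical, with identical runs of up to 54 bases, so the split between the copies is uncertain where the counting shared reads between them.

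**Figure D3:**
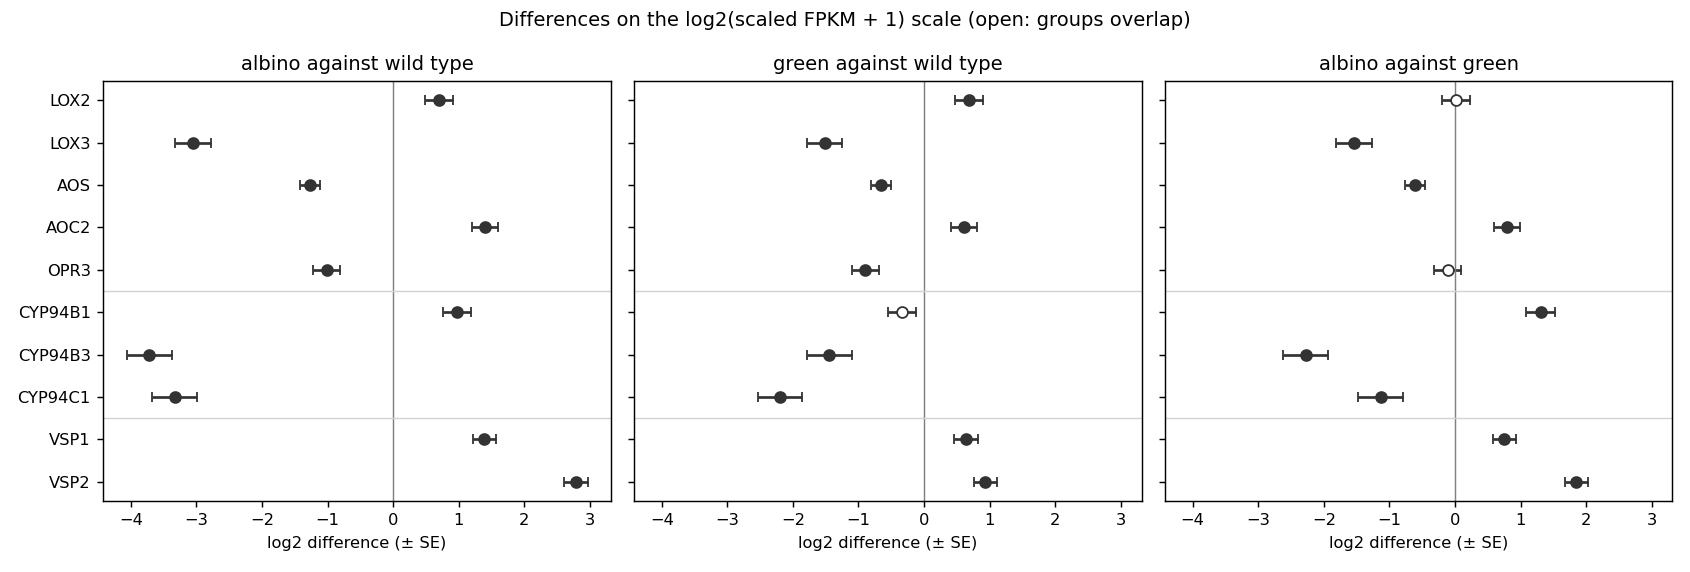
Difference of each of the 10 genes in log2(scaled FPKM + 1), with the standard error as the bar, in albino against wild type, green against wild type and albino against green. Grey lines part synthesis, breakdown and output genes, and open circles mark comparisons in which single libraries of the 2 groups overlap. LOX3, CYP94B3 and CYP94C1 lie farthest to the left and VSP2 farthest to the right in the albino against wild-type panel.

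The scaling moved all albino values together. The median difference of all genes tested in albino against wild type was 0.07 as deposited, 0.51 as TPM, 0.43 with the scaling undone and 0.02 with median-of-ratios factors, since the authors' factor was 0.787 ± 0.00551 in albino, 1.04 ± 0.0848 in green and 1.05 ± 0.0528 in wild-type libraries (SD, n = 3 each). Under each of these scalings the same 5 genes were above 0 and the same 5 below 0 in albino against wild type. As TPM, LOX2 differed by 1.17 and AOC2 by 1.88, and AOS by -0.81 and OPR3 by -0.56. In albino against green the median of all genes was 0.05 as deposited and 0.47 as TPM, and OPR3 and LOX2, both near 0, depend on it. The comparisons of albino and of green with the wild type share the same 3 wild-type libraries.

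Without green replicate 1 every difference in green against wild type kept its sign. The 5 genes that were lower without overlap were LOX3, now at -1.21, AOS at -0.49, OPR3 at -0.65, CYP94B3 at -1.23 and CYP94C1 at -1.91, each nearer to 0 than with all 3 green libraries. CYP94B1 was at -0.28, also nearer to 0, and LOX2 at 0.82, AOC2 at 0.68, VSP1 at 0.59 and VSP2 at 0.96. The values in albino against green without it were -1.85 for LOX3, -0.78 for AOS, -0.36 for OPR3, -2.49 for CYP94B3 and -1.42 for CYP94C1, each farther below 0 than with all 3. They were 1.25 for CYP94B1, 0.72 for AOC2, 0.80 for VSP1 and 1.83 for VSP2. LOX2, at 0.01 with all 3 green libraries, was at -0.12 without this one.

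The 10 genes can also be read across single libraries, where replicates of 1 group had spread of their own. Taking the deviations from the group means over the 9 libraries, LOX2 and AOC2 had a Pearson correlation of 0.98, the highest of the 45 pairs, and OPR3 and CYP94C1 had 0.87, both given as a description. Wild-type replicate 3 shows this: it was the lowest wild-type library for LOX2 and AOC2 and the highest for OPR3, CYP94B3 and CYP94C1. The genes most like the strongest gene of each role over all 9 libraries were AT4G26400, SRC2 and AT2G45820 for AOS, with Pearson correlations of 0.997, 0.996 and 0.995. For CYP94B3 they were AT5G52020, AT2G25460 and DDF1, at 0.997, 0.995 and 0.995, and for VSP2 AT2G34970, AT4G35220 and AT1G14120, at 0.992, 0.988 and 0.987. The 9 libraries fall into 3 groups that lie apart, so such values mostly carry the order of the groups.

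The rest of the pathway was followed in 75 other jasmonate genes, of which 63 could be tested. In albino against wild-type libraries 23 were called higher and 22 lower, where 23.4% of all genes tested were called higher and 20.1% lower. Expressed as TPM 37 were called higher and 16 lower, where 12212 of the 19731 genes tested were called higher and 2104 lower. In green against wild-type libraries 1 was called higher and 16 lower, where 3.71% of all genes were called higher and 5.16% lower. As TPM 2 were called higher and 11 lower, where 650 of the 19731 genes were called higher and 753 lower. In albino against green libraries 26 were called higher and 12 lower, where 18.5% of all genes were called higher and 17.7% lower. As TPM these were 39 and 9, where 11859 of the 19731 genes were called higher and 1839 lower. These values for all genes are the background for each list below. The green against wild-type count of 17 depended on single libraries: it was 7 without wild-type replicate 3, 7 without green replicate 2 and 10 without green replicate 1. Calls over all genes dropped as well, from 1751 to 1038, 1126 and 1373 in the same order. The median difference of the 63 other jasmonate genes was 0.08 in albino against wild type and -0.08 in green against wild type.

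**Figure D4:**
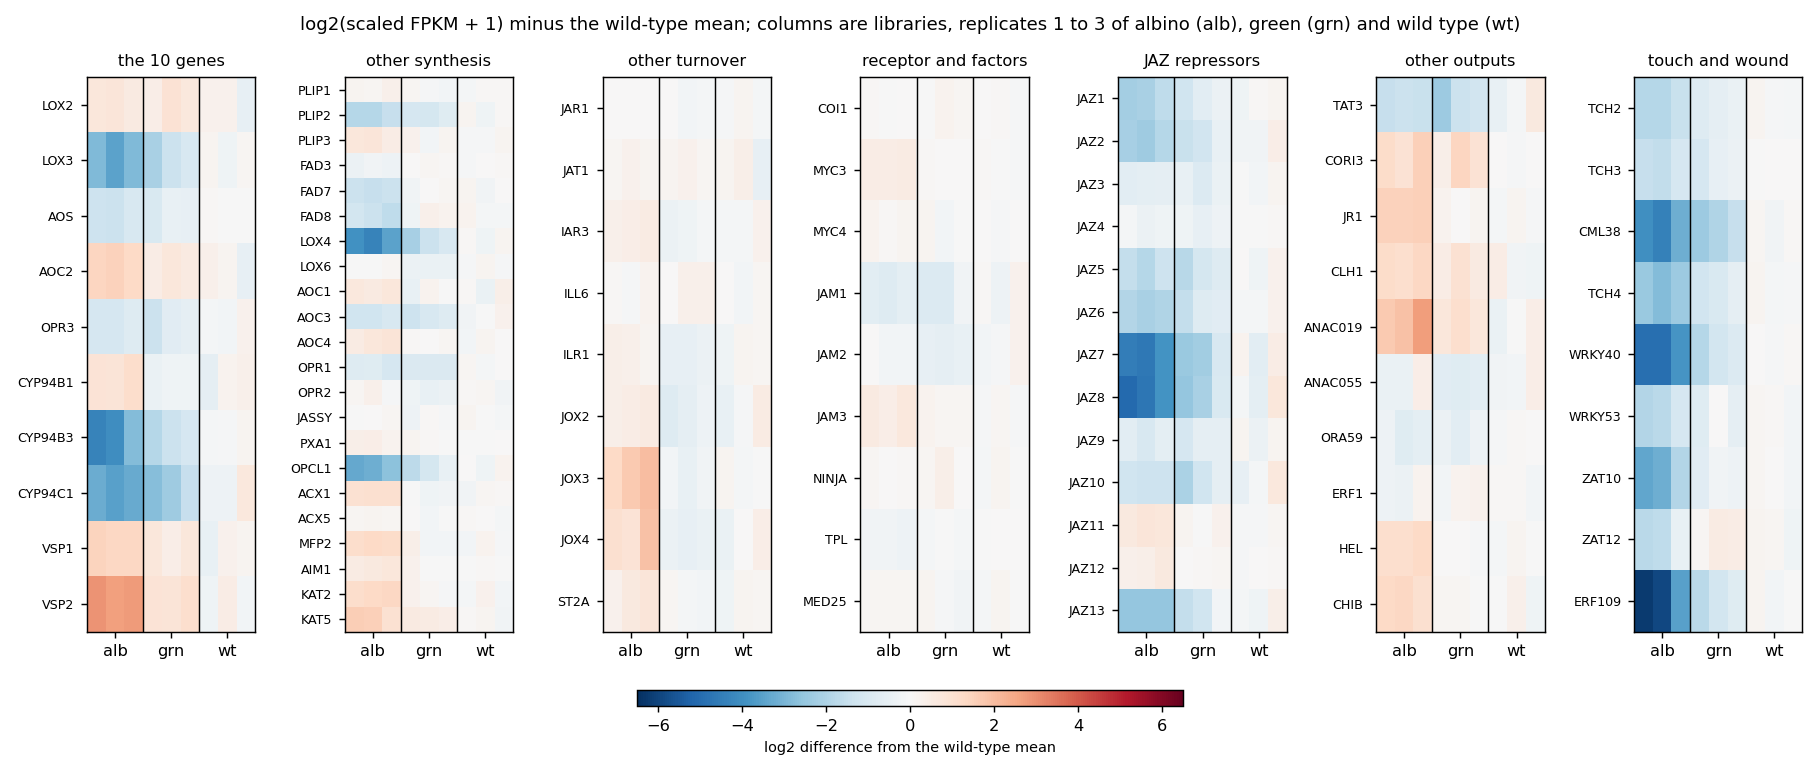
Heat map of log2(scaled FPKM + 1) minus the wild-type mean for the 10 genes, 63 other jasmonate genes and 9 touch and wound genes that passed the filter. Columns within a panel are libraries, replicates 1 to 3 of albino, green and wild type, and blue is below and red above the wild-type mean. JAZ7, JAZ8, WRKY40 and ERF109 are among the bluest in albino libraries, while JAR1, COI1 and MED25 stay pale throughout.

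Other synthesis genes differed in both directions. Of 22 tested, 9 rose and 8 fell in albino against wild type, where 23.4% of all genes were called higher and 20.1% lower. As TPM 14 rose and 7 fell, where 12212 of the 19731 genes tested were called higher and 2104 lower. In green against wild type 6 fell, where 5.16% of all genes were called lower. In albino against green 11 rose and 6 fell, where 18.5% were called higher and 17.7% lower. As TPM 15 rose and 4 fell in that comparison, where 11859 genes were called higher and 1839 lower. PLIP2, a plastid lipase, averaged 10.3 ± 1.51 in albino, 17.8 ± 2.71 in green and 36.9 ± 6.12 in wild-type libraries and fell by 1.74 ± 0.15 in albino against wild type (limma adjusted p = 1.88e-05). FAD8, a plastid desaturase that supplies the substrate, averaged 13.8 ± 2.44 in albino and 40.8 ± 8.85 in green libraries and fell by 1.49 ± 0.18 between them (limma adjusted p = 0.000189). All 3 desaturase genes tested were called lower in both albino comparisons as deposited, but 2 of 3 as TPM, where FAD3 turned to 0.16 in albino against wild type and 0.05 in albino against green.

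Most peroxisomal genes rose in albino libraries. Of the 8 tested, 6 rose and 1 fell in albino against wild type, where 23.4% of all genes were called higher. Likewise 6 rose and 1 fell in albino against green, where 18.5% were called higher, and 1 fell in green against wild type. PXA1, the peroxisomal importer, is among both sets of 6 and was named after its values were seen. It lost the call in albino against green without green replicate 2 or 3 or albino replicate 1 or 2 (adjusted p 0.0663 to 0.128) and with median-of-ratios factors (0.0503), which left 5, and in albino against wild type without albino replicate 2 (0.0539). The gene that fell was OPCL1, the ligase that activates OPDA-derived acids for beta-oxidation, at 9.04, 10.2 and 14.8 in albino libraries, 30.0, 44.2 and 70.9 in green libraries and 102, 81.2 and 117 in wild-type libraries. OPCL1 fell by 3.04 ± 0.28 in albino against wild type (limma adjusted p = 2.73e-05) and by 1.94 ± 0.28 in albino against green (limma adjusted p = 0.000604). In green against wild type it fell by 1.10 ± 0.28 (limma adjusted p = 0.0407), a call lost on leaving out any 1 of wild-type replicates 1 and 3, green replicates 1 and 2, or albino replicates 1 and 2 (adjusted p 0.0536 to 0.131). By contrast KAT2, a beta-oxidation thiolase named after its values were seen, averaged 234 ± 14.8 in albino, 106 ± 13.3 in green and 98.0 ± 18.6 in wild-type libraries and rose by 1.26 ± 0.14 in albino against wild type (limma adjusted p = 8.96e-05).

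Turnover genes other than CYP94B1, CYP94B3 and CYP94C1 numbered 12, CYP94B2 among them. Of these 9 could be tested, and none was called lower in albino than in wild-type libraries. Of the untested ones JMT, a methyltransferase of jasmonic acid named after its values were seen, was under 1 throughout, at 0.158, 0.193 and 0.0779 in albino, 0.24, 0 and 0.209 in green and 0.855, 0.626 and 0.307 in wild-type libraries, so that its albino libraries lay below the wild-type ones. JAR1, the conjugating enzyme, stood at 17.1, 17.5 and 17.1 in albino libraries, 17.6, 15.1 and 15.8 in green libraries and 16.2, 19.6 and 15.5 in wild-type libraries, with differences of 0.02 ± 0.10 in albino against wild type and -0.07 ± 0.10 in green against wild type that did not pass the test (limma adjusted p = 0.90 and 0.752). As TPM the albino difference of JAR1 passed it (limma adjusted p = 0.00867). Of 9 turnover genes tested, 4 rose in albino against wild type, where 23.4% of all genes were called higher. As TPM all 9 rose, where 12212 of the 19731 genes tested were called higher. In green against wild type 1 fell, where 5.16% of all genes were called lower, and 6 rose in albino against green, where 18.5% were called higher.

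JOX genes encode oxygenases that hydroxylate jasmonic acid itself, before conjugation. JOX3 averaged 4.31 ± 1.2 in albino, 0.344 ± 0.162 in green and 0.640 ± 0.176 in wild-type libraries. Its difference was 1.68 ± 0.18 in albino against wild type. JOX4 averaged 3.96 ± 2.04 in albino, 0.421 ± 0.0624 in green and 0.987 ± 0.568 in wild-type libraries and rose by 1.29 ± 0.28 (limma adjusted p = 0.0043). Both were under 1 in every green library, and JOX3 was under 1 in every wild-type library too. JOX3 thus passed the filter through its 3 albino libraries alone. It is among the turnover genes counted above as higher in both albino comparisons, and nothing is read from its calls. ST2A, a sulfotransferase of hydroxyjasmonate, rose by 0.56 ± 0.17 in albino against wild type (limma adjusted p = 0.0217), a call that leaving out wild-type replicate 1 ended, as did leaving out albino replicate 2 or 3 (adjusted p 0.0705 to 0.0816). ILR1, an amidohydrolase, fell by 0.48 ± 0.13 in green against wild type (limma adjusted p = 0.046), and leaving out any 1 library except wild-type replicate 1 ended that call (adjusted p 0.0603 to 0.145), as did TPM (0.112).

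Receptor and factor genes were called in both directions in albino against wild type as deposited, by less than 1 on the log2 scale. As TPM they were called only higher. COI1 stood at 11.9, 11.1 and 11.8 in albino libraries, 11.0, 13.6 and 12.5 in green libraries and 11.6, 12.0 and 10.6 in wild-type libraries, and its difference of 0.02 ± 0.09 in albino against wild type did not pass the test (limma adjusted p = 0.855; 0.00107 as TPM). MYC3, a partner of MYC2 in activating jasmonate genes, averaged 17.3 ± 0.381 in albino, 12.4 ± 0.307 in green and 12.0 ± 0.817 in wild-type libraries and rose by 0.49 ± 0.08 in albino against wild type (limma adjusted p = 0.000631). JAM3, a factor that competes with MYC2 and represses, averaged 19.8 ± 1.68 in albino, 14.8 ± 0.67 in green and 13.1 ± 1.25 in wild-type libraries and rose by 0.56 ± 0.09 in albino against wild type (limma adjusted p = 0.00104). Of 9 genes tested, 2 rose and 2 fell in albino against wild type, where 23.4% of all genes were called higher and 20.1% lower. As TPM 6 rose and none fell, where 12212 of the 19731 genes tested were called higher. Against green libraries 3 rose in albino ones, where 18.5% were called higher, or 8 as TPM, where 11859 genes were. In green against wild type 1 fell, where 5.16% of all genes were called lower, or none as TPM, where 753 genes were. In albino against wild type the fall of the repressor JAM1 (0.72 ± 0.20, limma adjusted p = 0.0168) was lost as TPM (adjusted p = 0.266) and without wild-type replicate 1, wild-type replicate 3 or albino replicate 2 (adjusted p 0.053 to 0.0616). JAM2 fell by 0.52 ± 0.12 in green against wild type (limma adjusted p = 0.027), lost without wild-type replicate 3 or any 1 green library (adjusted p 0.0548 to 0.0833) and as TPM (0.0924).

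MYC2 (AT1G32640), the main activator of the MYC branch, was listed at 0 in all 9 libraries and gives no value here. In the TAIR10.1 annotation AT1G32630, on the opposite strand, covers 3241 bases of it, 98.5% of the gene. AT1G32630, looked up for this reason, averaged 31.7 ± 13.5 in albino, 76.4 ± 13.9 in green and 109 ± 11.4 in wild-type libraries. Its difference was -1.82 ± 0.25 in albino against wild type (limma adjusted p = 0.000275), -0.51 ± 0.25 in green against wild type (limma adjusted p = 0.263) and -1.30 ± 0.25 in albino against green (limma adjusted p = 0.00263). The kit marked strand, but whether the counting used it is not given in the sources used here, so the 2 genes cannot be told apart.

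The JAZ repressor genes are themselves early targets of the hormone, and most fell in albino against wild type. Of 13 tested, 2 rose and 10 fell in albino against wild type, where 23.4% of all genes were called higher and 20.1% lower. As TPM 2 rose and 8 fell, where 12212 of the 19731 genes tested were called higher and 2104 lower. In green against wild type 7 fell, where 5.16% of all genes were called lower. As TPM 5 fell there, where 753 genes were called lower. In albino against green 2 rose and 6 fell, where 18.5% were called higher and 17.7% lower. As TPM 2 rose and 5 fell, where 11859 genes were called higher and 1839 lower. Summed JAZ levels were 170 to 214 in albino, 219 to 382 in green and 492 to 675 in wild-type libraries. The 2 that rose were JAZ11 and JAZ12, named after their values were seen, by 0.71 ± 0.11 and 0.45 ± 0.09 in albino against wild type (limma adjusted p = 0.000726 and 0.00329).

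JAZ7 stood at 1.60, 1.28 and 2.87 in albino libraries, at 9.75, 11.2 and 26.8 in green libraries and at 65.8, 34.9 and 78.8 in wild-type libraries, and fell by 4.34 ± 0.39 in albino against wild type (limma adjusted p = 2.2e-05). JAZ8 was listed at 0 in albino replicate 1, at 0.275 and 1.28 in the others, at 4.78, 6.86 and 15.9 in green libraries and at 29.7, 20.9 and 55.0 in wild-type libraries, and fell by 4.56 ± 0.46 in albino against wild type (limma adjusted p = 4.23e-05). JAZ13 was listed at 0 in all 3 albino libraries, at 1.00, 1.38 and 4.06 in green libraries and at 4.27, 3.83 and 6.56 in wild-type libraries, with a call in albino against wild type (limma adjusted p = 0.000142). The groups of JAZ7 and JAZ8 did not overlap, with green libraries in between, while a green library of JAZ13 reached into the wild-type range. In green against wild type JAZ5 fell by 1.27 ± 0.25, JAZ7 fell by 1.91 ± 0.39 and JAZ8 fell by 1.87 ± 0.46 (limma adjusted p = 0.0127, 0.0156 and 0.0326). JAZ5 lost the call without wild-type replicate 3 (adjusted p = 0.0517). JAZ7 lost it without wild-type replicate 3, green replicate 1 or green replicate 2 (0.0506 to 0.0609), and JAZ8 without any 1 of 5 libraries, which were 1 and 3 of the wild type, 1 and 2 of green and 2 of albino (0.0524 to 0.107), as well as with a pseudocount of 0.1 (0.194) or as TPM (0.0582).

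Among other outputs 6 of the 10 tested rose and 2 fell in albino against wild type, where VSP1 and VSP2 were both higher. Of all genes 23.4% were called higher there and 20.1% lower. As TPM 6 rose and 1 fell, where 12212 of the 19731 genes tested were called higher and 2104 lower. In green against wild type 1 rose and 1 fell, where 3.71% of all genes were called higher and 5.16% lower. As TPM these were 2 and 1, where 650 genes were called higher and 753 lower. In albino against green 4 rose, where 18.5% were called higher, or 7 as TPM, where 11859 genes were. JR1, a jasmonate-responsive lectin gene, stood at 94.1, 94.6 and 100.3 in albino libraries, 38.7, 33.6 and 37.6 in green libraries and 30.3, 38.2 and 31.3 in wild-type libraries, and rose by 1.51 ± 0.10 in albino against wild type (limma adjusted p = 5.77e-06). ANAC019, a NAC factor downstream of MYC2, averaged 8.23 ± 3.65 in albino, 2.74 ± 0.549 in green and 1.11 ± 0.640 in wild-type libraries and rose by 2.1 ± 0.28 (limma adjusted p = 0.000246). HEL, a hevein-like protein of the ethylene and jasmonate branch, rose by 1.17 ± 0.10 in albino against green (limma adjusted p = 2.91e-05).

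The outputs were not uniform. TAT3, a wound-induced tyrosine aminotransferase, stood at 2.58, 2.91 and 2.67 in albino libraries, at 1.01, 2.83 and 3.34 in green libraries and at 6.21, 8.39 and 14.5 in wild-type libraries. It fell by 1.45 ± 0.31 in albino against wild type and by 1.66 ± 0.31 in green against wild type (limma adjusted p = 0.00445 and 0.0108). CORI3, the related cystine lyase gene, rose by 1.23 ± 0.24 in albino against wild type (limma adjusted p = 0.00235), a call that no single library ended. It rose by 0.91 ± 0.24 in green against wild type (limma adjusted p = 0.0444), a call that only 2 libraries, green replicate 1 and albino replicate 3, could be left out without ending (adjusted p 0.0524 to 0.122 for the other 7). The defensin genes PDF1.2A and PDF1.2B were listed at 0 in all libraries. THI2.1, a thionin gene named after its values were seen and below the filter, was at 0.786, 1.02 and 1.95 in albino libraries and listed at 0 in the green and wild-type ones.

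The 9-lipoxygenases feed other oxylipins: LOX1 averaged 43.4 ± 4.89 in albino, 19.4 ± 5.40 in green and 15.5 ± 1.53 in wild-type libraries and rose by 1.43 ± 0.17 in albino against wild type (limma adjusted p = 0.00012). LOX5 fell by 0.66 ± 0.15 in green against wild type (limma adjusted p = 0.0249), lost without wild-type replicate 2 or 3 or any 1 green library (0.0504 to 0.0776), and its fall in albino against wild type (0.61 ± 0.15, limma adjusted p = 0.00931) was lost as TPM (adjusted p = 0.21).

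Genes that respond within minutes to touch and wounding were lower in albino libraries, as were LOX3 and CYP94B3. All 9 tested fell in albino against wild type, where 20.1% of all genes were called lower, and in albino against green, where 17.7% were. TCH3, named like TCH2 after its values were seen, lost the call in albino against green as TPM and without albino replicate 2 (adjusted p = 0.0518). In green against wild type 4 fell, where 5.16% of all genes were called lower, or 5 as TPM, where 753 of the 19731 genes were. Of these 4, TCH2 lost the call on leaving out any 1 wild-type library or green replicate 1 or 2 (adjusted p 0.0517 to 0.0897). WRKY40 lost it without wild-type replicate 1 or 3 or green replicate 1 or 2 (0.0603 to 0.0779), while no single library ended it for CML38 and TCH4. Their summed levels were 330, 308 and 523 in albino libraries, 947, 1292 and 1461 in green libraries and 2298, 2038 and 2092 in wild-type libraries. WRKY40 stood at 11.7, 11.7 and 25.8 in albino libraries, 104, 161 and 199 in green libraries and 376, 350 and 400 in wild-type libraries, and fell by 4.53 ± 0.30 in albino against wild type (limma adjusted p = 4.86e-06). In the same comparison ERF109 fell by 5.23 ± 0.59 (limma adjusted p = 8.68e-05) and CML38 fell by 3.85 ± 0.30 (limma adjusted p = 1e-05). Albino replicate 3 was the highest albino library for this sum and for LOX3, AOS, OPR3, CYP94B1 and CYP94B3, and the lowest for LOX2 and AOC2. Green replicate 1 was the lowest green library for this sum and for all of the 10 genes except VSP1 and VSP2. It was thus lowest also for LOX2 and AOC2, which were higher in green than in wild-type libraries. The part of the touch and wound genes' response in the differences of the 10 genes was not tested.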

How the data were processed

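Per the labels' protocols, a SurePrep kit was used for RNA and a stranded Illumina kit for poly(A) libraries. Per the submitters' processing notes, FastQC, HISAT2 and StringTie were run on the TAIR10 genome, with no versions or strand setting given. The authors deposited log2 values of 32833 genes in 9 libraries. These were read from the values as log2(scaled FPKM + 1): every library has a 75th percentile of 3.70, and with each library's factor (0.781 to 1.12) undone 69.5% to 70.3% of values fell on a grid of 6 decimals, against 19.7% to 20.4% with a wrong factor. The deposited log2 values were tested unchanged.

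Genes at 1 or more in 3 or more libraries were fitted with limma 3.58.1 in R 4.3.3, all 9 libraries together, 1 mean for each group and a variance trend, and Benjamini-Hochberg adjustment within each comparison. The code was tested on simulated data. The 10 genes and the lists of other genes were chosen with earlier results of these data known. Beyond the 10 genes, JAR1, COI1, MYC2, 2CPA and 2CPB, the text names up to 3 called genes with the largest difference per list and comparison. For the strongest gene of each role it names the 3 genes with the highest Pearson correlation over the 9 libraries. Most other names are marked as chosen after their values were seen. FAD3, MED25, PDF1.2A and PDF1.2B were named outside these rules without such a mark, as were family relatives and tissue markers. Sequences, positions and overlaps came from the RefSeq TAIR10.1 genome and annotation, which matched 32548 loci, with Python 3.11.15 and Biopython 1.88; coding identities are from global alignments. Alternatives changed the pseudocount, filter, scaling, fit, replicate block and each library in turn.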

Additional observations from a re-analysis of the deposited data

How the results depend on the processing

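Without read counts, absolute depth and the counting error of single values are unknown, and near-identical copies limit AOC2, VSP1 and VSP2. Of the differences of the 10 genes under all alternatives, 550 moved by less than 1 SD between replicates and 50 by more. Many of the 550 could not move. Another filter, no variance trend, the replicate block or only the 6 libraries compared leaves each difference as it was. Leaving out a library of the group not compared does the same. The 50 all came with another pseudocount or scaling or with green replicates 2 and 3 left out. Only OPR3 and LOX2, near 0 in albino against green, changed sign. Of the calls of other named genes 1885 were unchanged, 107 were lost and 30 gained.

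Genes called in green against wild type numbered 1751, against 1071 with only the 6 libraries compared, 729 with green replicates 2 and 3 left out, and 1038 to 1627 on leaving out 1 library. Other jasmonate genes called there numbered 17, against 8 with only the 6 libraries compared and 7 to 18 on leaving out 1 library. With no filter they numbered 9, where 1419 of all genes were called. Of the 10 genes 6 were called, where 8.87% of all genes tested were called, and 3 to 6 on leaving out 1 library, the lowest without wild-type replicate 3. The 10 genes were chosen by these differences, so nothing is read from their counts in any comparison of this paragraph. In albino against wild type 8581 genes were called (4613 higher, 3968 lower), against 14316 as TPM (12212 higher, 2104 lower) and 13918 with the scaling undone (11649 higher, 2269 lower). Leaving out 1 library gave 6580 to 8752 genes, 40 to 45 other jasmonate genes and 9 to 10 of the 10 genes. In albino against green 7131 were called (3648 higher, 3483 lower), against 13698 as TPM (11859 higher, 1839 lower), 13070 with the scaling undone (11073 higher, 1997 lower) and 2655 with green replicates 2 and 3 left out. That setting also left 18 of 38 other jasmonate genes and 3 of 8 of the 10 genes called. Leaving out 1 library gave 5202 to 7472 genes, 34 to 39 other jasmonate genes and 6 to 8 of the 10 genes. In the replicate block fit 22 other jasmonate genes were called in green against wild type, 46 in albino against wild type and 39 in albino against green. Over all genes that fit called 1784, 8621 and 7112 in the same order. Pairing of same-numbered libraries was mixed: green and wild-type deviations correlated at -0.08, 0.28 and 0.27 for replicates 1, 2 and 3. Green replicates 2 and 3 correlated best with their own number in wild type. Green replicate 1 did not, with 0.04 to wild-type replicate 2. The labels name no pairs, so the libraries were treated as unpaired. The cause of these shifts was not tested.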
